A study of Mus musculus with 20 samples.

Results

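Levels of 9 Notch pathway genes were examined in mouse embryonic stem cells with altered Trim71. The genes were the receptors Notch1, Notch2 and Notch3, the ligand Jag1, the protease Adam10, the glycosyltransferase Lfng, the DNA-binding factor Rbpj, its coactivator Maml1 and the target Hes1. They were taken by symbol, and all 9 were among the 13283 gene symbols of the deposited table. Of these, 8 passed the minimum mean level used for testing, which was 10 on the linear scale, and Lfng did not.

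The study sequenced bulk RNA from male C57BL/6 embryonic stem cells kept in fetal calf serum with LIF and the 2i inhibitors, conditions that hold such cells in an undifferentiated state. One set held 4 libraries of cells with floxed Trim71 (Trim71-cond, genotype Trimfl/fl) and 4 of cells labelled Trim71-KO, in each case with 1A, 2B, 3A or 3B as replicate code. The number in each code is also the day tag that the labels give these libraries, so 3A and 3B share a day tag. The other set held 3 WT clones (C16, C7 and C5), 3 clones heterozygous for the R595H change of TRIM71 (R595H/+; C15, C21 and C23) and 3 homozygous clones (R595H/R595H; C14, C20 and C24). The controls of the first set thus carry the floxed allele themselves, and their labels name no clone, so whether the 4 Trim71-KO libraries come from separate deletions is not known. If they do not, the p-values measure only the spread between these libraries. Clones C16, C14 and C15 were sequenced from the dates 20/1 and 5/2 and their libraries were averaged, while the other clones have a library of 5/2.

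TRIM71 is an RNA-binding protein of pluripotent cells, and the title of the series names neural differentiation as its theme. In Notch signalling a ligand on one cell, such as JAG1, engages a receptor on its neighbour. ADAM10 then cuts the receptor outside the membrane, gamma-secretase releases its intracellular domain, and that fragment joins RBPJ and a Mastermind protein such as MAML1 on DNA to switch on genes such as Hes1. In embryonic stem cells the pathway is known for its part in the choice of neural fate, and HES1, a repressor, is known to vary from cell to cell.

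All levels are the authors' deposited values on a log scale taken to be base 2, so a difference of 1 is a doubling if that base holds. Library medians lay between 5.15 and 5.20, and since sequencing depth is unknown no counting interval can be given. Trim71 itself was checked first. It read 8.94, 8.94, 8.93 and 9.01 in the Trim71-cond libraries 1A, 2B, 3A and 3B, and 7.44, 7.43, 7.47 and 7.53 in the matching Trim71-KO libraries. Trim71 was thus 2.80-fold lower in Trim71-KO (adjusted p 8.2e-14, limma). In the clones it read 9.48 to 9.53 in WT, 9.55 to 9.63 in R595H/+ and 10.00 to 10.18 in R595H/R595H. All 8 embryonic stem cell markers were above the minimum. Their summed level was 12.9 to 13.0 in Trim71-cond and 13.1 to 13.2 in Trim71-KO libraries. Of 6 neural progenitor markers 4 were in the table, Nes and Olig2 above the minimum and Sox1 and Pou3f2 below it. None of the primitive endoderm markers, 5 of which were in the table, and no fibroblast marker passed the minimum, while 2 of 5 trophectoderm markers did.

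The libraries of code 1A stood apart. Across 9580 genes, the Trim71-KO minus Trim71-cond difference at 1A had a slope of 0.432 on the mean difference of the other codes, against 0.714 to 0.868 for each of the other 3 codes. Trim71 differed at 1A by -1.49, within the range of the other codes. No other code has the day tag of 1A, so code and day cannot be told apart there. Differences between Trim71-KO and Trim71-cond are therefore given with and without both 1A libraries, but for some genes only. These are the tested Notch genes listed at the outset and the further pathway genes with an adjusted p under 0.05 when all libraries are used. For Trim71, Lfng, the cell type markers and further pathway genes that did not pass, differences are given only with the 1A libraries included. Leaving out 1A was an alternative chosen after the values were seen.

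The promoter sequences show which of these genes carry the letters that RBPJ binds near their start. RefSeq windows on GRCm38.p6, from 250 bases before to 50 after the start, were found for 8 of the 9 genes. Rbpj has a pair of windows there, and Hes1 has none in the table. The core of the RBPJ site, TGGGAA, was searched on both strands. It is present in 25.6% of 32851 mouse windows of this length, and 3.79% hold 2 or more matches. The first window of Rbpj, at chr5:53590096-53590395 on the plus strand, and the window of Lfng, at chr5:140607091-140607390 on the plus strand, each held 2. Both are shown because they hold the matches, and Jag1, at chr2:137116471-137116770 on the minus strand, is shown as a gene with no match. Capitals mark the core or its reverse complement.
Rbpj: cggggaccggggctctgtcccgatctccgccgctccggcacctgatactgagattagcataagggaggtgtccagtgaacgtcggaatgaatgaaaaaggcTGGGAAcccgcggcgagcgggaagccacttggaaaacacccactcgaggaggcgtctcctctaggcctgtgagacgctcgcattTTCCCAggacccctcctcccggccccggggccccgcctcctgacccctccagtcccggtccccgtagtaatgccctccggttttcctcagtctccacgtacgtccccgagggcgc
Lfng: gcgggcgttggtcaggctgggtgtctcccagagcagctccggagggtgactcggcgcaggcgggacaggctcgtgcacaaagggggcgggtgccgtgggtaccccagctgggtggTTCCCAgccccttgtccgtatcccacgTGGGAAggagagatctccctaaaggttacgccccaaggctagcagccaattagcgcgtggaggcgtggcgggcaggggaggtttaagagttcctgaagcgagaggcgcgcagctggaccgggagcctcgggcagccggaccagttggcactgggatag
Jag1: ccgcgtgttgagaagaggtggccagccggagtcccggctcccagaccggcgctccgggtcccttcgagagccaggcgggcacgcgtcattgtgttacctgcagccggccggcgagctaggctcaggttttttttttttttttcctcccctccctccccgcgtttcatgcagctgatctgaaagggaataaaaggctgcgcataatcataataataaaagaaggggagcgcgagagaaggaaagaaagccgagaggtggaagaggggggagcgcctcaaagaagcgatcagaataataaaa

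In Rbpj the matches began 149 bases before the start on the same strand and 65 before it on the opposite strand. In Lfng they began 135 bases before on the opposite strand and 108 before on the same strand. The second Rbpj window, which overlaps the first, held 1 match, and the windows of Notch1, Notch2, Notch3, Jag1, Adam10 and Maml1 held none. CACNAG, the N-box letters bound by HES1, occurs in 42.5% of all windows. It was found 3 times in Notch1, 2 times in Notch3 and 1 time each in Notch2 and Lfng. All 9 windows were rich in CpG, with 22 to 41 CpG pairs against a median of 7 over all windows. These matches are letters in a window and not bound sites.

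The genes differed widely in how much transcript they gave. Per kilobase of exon, with exons from GENCODE vM21, the level averaged over the 5 groups on the log2 scale was highest for Adam10 (5.52), followed by Rbpj (5.01) and Hes1 (4.86). Jag1 followed at 3.65, and the receptors came in the order Notch3 (3.28), Notch2 (2.91) and Notch1 (1.88) on the same per-length scale. Maml1 stood at 1.59 and Lfng at -1.19. The library kit does not mark strand, so reads of Notch1, Notch3 and Maml1 cannot be told apart from those of antisense genes that overlap their exons, such as Gm17276 at Notch3. Exons of Notch2 are overlapped on the same strand by Gm42820, and how such reads were assigned is not known.

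**Figure D1:**
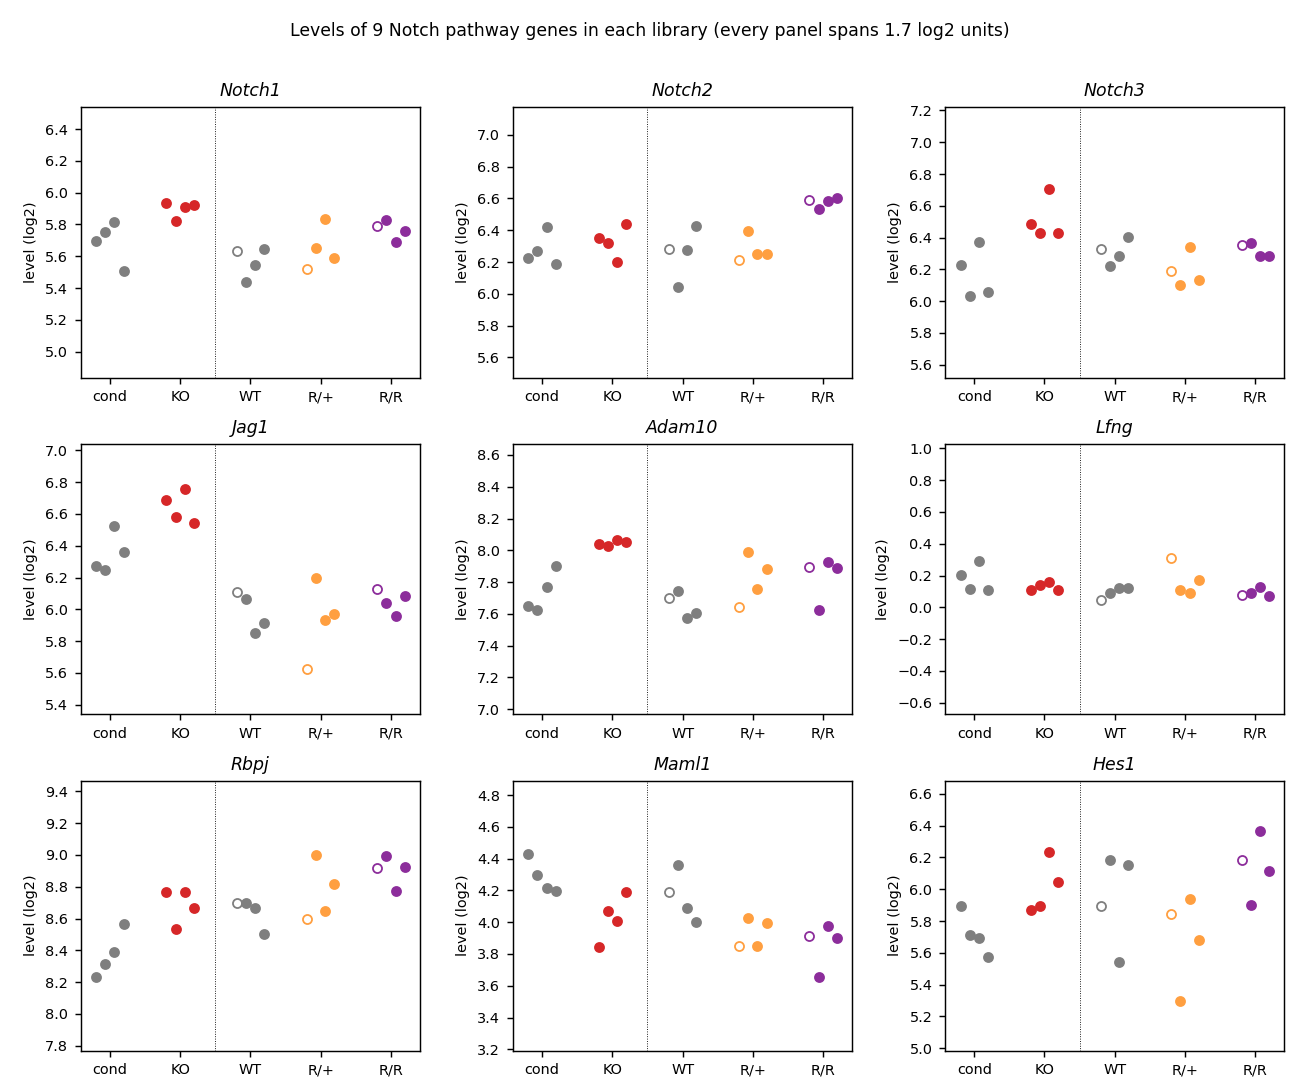
Level (log2) of each of the 9 genes in every library, by genotype group, with all panels spanning the same range; open circles are libraries of 20/1. cond is Trim71-cond, KO is Trim71-KO, R/+ is R595H/+ and R/R is R595H/R595H. Adam10 in Trim71-KO lies between 8.03 and 8.06, above every other library shown, and Lfng is at most 0.31 throughout.

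In Trim71-KO cells, transcripts for a receptor, a ligand, the receptor-cutting protease, the DNA-binding factor and a target were all modestly higher, and the coactivator Maml1 was lower. Of the 8 genes tested, 5 rose (Notch3, Jag1, Adam10, Rbpj and Hes1) and 1 fell (Maml1) at an adjusted p under 0.05. Over all genes the share called was 18.6%, with 9.24% called higher and 9.37% called lower. The median log2 difference of the 8 genes was 0.29, against -0.003 over all 9580 genes tested. The 9 genes were chosen with earlier results of these data known. A share or median of theirs beyond that of all genes therefore measures no excess in the pathway, here or in the clones. Without both 1A libraries 4 of the 8 were called, all higher (Notch3, Adam10, Rbpj and Hes1), where 15.6% of all genes were called. In 5 of the 8 genes (Notch1, Notch3, Jag1 and Adam10 higher, Maml1 lower) the groups did not overlap, which held for 20.8% of all genes. The share of cells that express a gene and the RNA per cell cannot be told apart in bulk samples.

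Among the receptors Notch3 changed most. Its level was 6.23, 6.37, 6.03 and 6.06 in Trim71-cond and 6.49, 6.71, 6.43 and 6.43 in Trim71-KO at codes 1A, 2B, 3A and 3B. Every Trim71-KO library lay above every Trim71-cond library, and each code showed the rise. The group means were 6.51 ± 0.13 (SD, n = 4) and 6.17 ± 0.16 (SD, n = 4), a 1.26-fold rise (log2 0.34 ± 0.09, SE; adjusted p 0.011). Without 1A the difference was 0.36 (adjusted p 0.017).

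Notch1, the receptor first tied to T cell leukaemia, read 5.69, 5.81, 5.75 and 5.51 in Trim71-cond and 5.93, 5.91, 5.82 and 5.92 in Trim71-KO. The groups did not overlap, but by a margin far smaller than their spread. The difference of 0.21 ± 0.08 (SE) had an adjusted p of 0.087, and without 1A it was 0.19 (adjusted p 0.24). Notch2, by contrast, read 6.22, 6.42, 6.27 and 6.19 against 6.35, 6.20, 6.32 and 6.44, and the groups overlapped. Its difference was 0.05 ± 0.08 (SE; adjusted p 0.68), or 0.03 without 1A (adjusted p 0.89).

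Jag1 encodes a membrane ligand. It read 6.27, 6.53, 6.25 and 6.36 in Trim71-cond and 6.69, 6.76, 6.58 and 6.55 in Trim71-KO. The ranges only just failed to meet, at the Trim71-cond library 2B and the Trim71-KO library 3B. The rise was 1.22-fold (log2 0.29 ± 0.08, SE; adjusted p 0.015). Without both 1A libraries it was 0.25 with an adjusted p of 0.084, and the call was lost.

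Adam10, which encodes the protease that starts receptor activation, had the smallest spread of the set in Trim71-KO. It read 8.04, 8.06, 8.03 and 8.05 there, against 7.65, 7.77, 7.62 and 7.90 in Trim71-cond. Every Trim71-KO library was higher. The fold was 1.24 (log2 0.31 ± 0.07, SE; adjusted p 0.0026), and 0.28 on the log2 scale without 1A (adjusted p 0.016).

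Rbpj encodes the protein that anchors the Notch fragment to DNA and holds its targets silent without it. Its level was 8.23, 8.39, 8.31 and 8.57 in Trim71-cond and 8.77, 8.77, 8.54 and 8.67 in Trim71-KO. The Trim71-KO library 3A fell just under the Trim71-cond library 3B, so the groups overlapped. Rbpj was 1.24-fold higher (log2 0.31 ± 0.07, SE; adjusted p 0.0045). The rise was uneven, from 0.54 at 1A through 0.38 at 2B and 0.22 at 3A to 0.10 at 3B, and without 1A it was 0.23 (adjusted p 0.038). The difference was thus smaller at each higher day tag, and whether day has a part in it was not tested.

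Maml1 was the gene that fell. It read 4.43, 4.22, 4.29 and 4.20 in Trim71-cond and 3.84, 4.01, 4.07 and 4.19 in Trim71-KO. All Trim71-KO libraries were lower, but at code 3B the difference was -0.01. The fall was 1.20-fold (log2 -0.26 ± 0.09, SE; adjusted p 0.048). With the replicate code as a block the adjusted p was 0.087, and without both 1A libraries the difference was -0.15 with an adjusted p of 0.38. The call was also lost without Trim71-cond 1A (adjusted p 0.14), Trim71-KO 1A (0.18), Trim71-cond 3A (0.087), Trim71-KO 3A (0.066), Trim71-cond 2B (0.064), Trim71-KO 2B (0.092) or Trim71-cond 3B (0.055). Processing mattered as well, since the call was lost with no minimum, at equal library totals and with day as a block. It held in 3 of 15 alternatives.

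Hes1, whose product represses neuronal differentiation genes, read 5.89, 5.69, 5.71 and 5.58 in Trim71-cond and 5.87, 6.23, 5.89 and 6.05 in Trim71-KO. At 1A the pair did not separate, with a difference of -0.02, while at 2B and 3B Trim71-KO was higher by 0.54 and 0.47. Hes1 was 1.22-fold higher (log2 0.29 ± 0.09, SE; adjusted p 0.033), and without both 1A libraries the difference was 0.40 with an adjusted p of 0.010. The call was lost without Trim71-cond 3A (adjusted p 0.060), Trim71-cond 2B (0.077), Trim71-KO 2B (0.12), Trim71-cond 3B (0.11) or Trim71-KO 3B (0.079). Of the neural progenitor markers above the minimum, Olig2 was higher in Trim71-KO by 0.50 (adjusted p 0.0013) and Nes differed by 0.07 (adjusted p 0.54). The summed level of those in the table was 6.98 to 7.16 in Trim71-cond and 7.17 to 7.38 in Trim71-KO. Of the embryonic stem cell markers, limma also called Nanog (0.39, adjusted p 1.4e-05), Tdgf1 (0.30, 0.0076), Sox2 (0.23, 0.0065) and Fgf4 (0.23, 0.004) higher in Trim71-KO. Zfp42 was lower (-0.20, 0.039), and Pou5f1, Esrrb and Dppa5a were not called. The part of either group of markers in the Hes1 result was not tested.

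**Figure D2:**
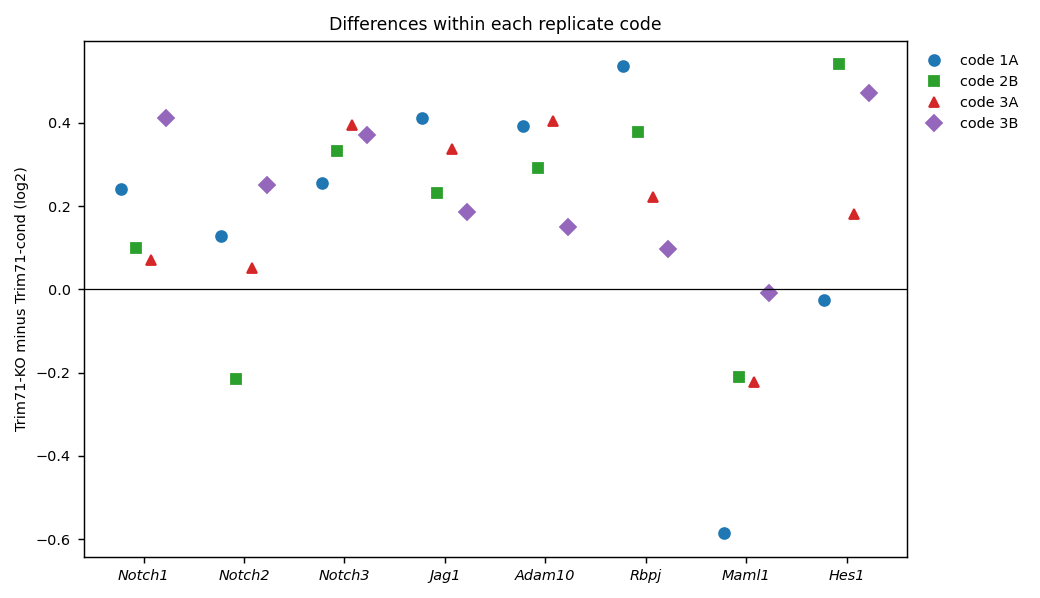
Trim71-KO minus Trim71-cond (log2) within each replicate code, for the 8 genes above the minimum; each point is the difference of 1 pair of libraries. Notch1, Notch3, Jag1, Adam10 and Rbpj lie above 0 at every code, Maml1 lies below 0 at every code but only by 0.01 at 3B, and the points of Notch2 and Hes1 fall on both sides.

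Lfng, which encodes a sugar transferase that tunes which ligands a receptor hears, was barely detected. Its level lay between 0.11 and 0.29 in Trim71-cond, between 0.11 and 0.16 in Trim71-KO and between 0.04 and 0.31 in the clonal libraries. With no minimum applied, its difference between Trim71-KO and Trim71-cond was -0.05 (adjusted p 0.40).

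In the rest of the pathway rises and falls were mixed. Of 62 further pathway genes listed by role, 53 were in the table and 36 above the minimum. In Trim71-KO 4 of these 36 rose and 2 fell, a share close to the background of 18.6%, and their median difference was -0.03. Groups did not overlap for 10 of the 36, against 20.8% of all genes. Without both 1A libraries 5 rose and 1 fell, 16.7% of the 36, where 15.6% of all genes were called.

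Among 11 corepressors tested, proteins that keep RBPJ targets off, 3 rose, where 9.24% of all genes were called higher. Ncor1, a scaffold of a histone deacetylase complex, rose from 9.32 ± 0.09 to 9.54 ± 0.03 (SD, n = 4 each; adjusted p 0.0074). Ctbp2, a corepressor, rose from 7.84 ± 0.05 to 8.04 ± 0.06 (SD, n = 4 each; adjusted p 0.020), and Hdac2, a histone deacetylase, rose from 9.05 ± 0.08 to 9.23 ± 0.11 (SD, n = 4 each; adjusted p 0.042). The Ctbp2 call was lost with the replicate code as a block (adjusted p 0.052) and without Trim71-cond 2B (0.063) or Trim71-KO 2B (0.062). That of Hdac2 was lost without Trim71-cond 3A (adjusted p 0.13), Trim71-cond 2B (0.085), Trim71-KO 2B (0.14), Trim71-cond 3B (0.064) or Trim71-KO 3B (0.12). It was lost as well with no minimum, with day as a block and with eBayes run without trend and robust. Without both 1A libraries the differences were 0.19 for Ncor1 (adjusted p 0.048), 0.23 for Ctbp2 (0.045) and 0.24 for Hdac2 (0.021). These proteins serve many other transcription factors too.

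Of the 8 inhibitors and turnover factors tested, Fbxw7 rose and Dtx3l fell, where 18.6% of all genes were called in either direction. Fbxw7 encodes the ubiquitin ligase subunit that marks the released Notch fragment for destruction. It read 7.34, 7.24, 7.21 and 7.28 in Trim71-cond and 7.51, 7.47, 7.63 and 7.80 in Trim71-KO, with no overlap (1.26-fold, adjusted p 0.0033). Dtx3l, a Deltex-family ubiquitin ligase also known from DNA damage and interferon responses, read 5.09, 5.18, 5.22 and 5.19 against 4.67, 4.34, 4.80 and 4.69. It was 1.46-fold lower (adjusted p 0.00058), a larger change than that of any of the 9 genes. Without 1A the log2 differences were 0.39 for Fbxw7 (adjusted p 0.0022) and -0.59 for Dtx3l (adjusted p 0.00057).

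Elsewhere in the pathway few genes passed. Mib2, an enzyme that ubiquitinates ligands, fell from 6.55 ± 0.12 to 6.32 ± 0.11 (SD, n = 4 each; adjusted p 0.049, and 0.085 with the replicate code as a block). That call was lost without any single one of the libraries Trim71-cond 1A, 2B, 3A or 3B or Trim71-KO 1A, 2B or 3A, with adjusted p from 0.052 to 0.17, and without both 1A libraries (-0.25, adjusted p 0.084). The Mib2 call was lost too with no minimum, at equal library totals, with day as a block and with eBayes run without trend and robust. It held in 3 of 16 alternatives. The gamma-secretase subunit genes Ncstn and Aph1a had differences of 0.22 (adjusted p 0.082) and -0.15 (adjusted p 0.18), and none of the 3 glycosylation genes (Pofut1, Poglut1 and Eogt) was called by limma. Jag2, the other ligand above the minimum, differed by 0.10 (adjusted p 0.59). Apart from Hes1, the genes above the minimum that the list used here gives as targets were Hes6 (-0.05, adjusted p 0.71) and Dtx1 (-0.08, adjusted p 0.56).

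**Figure D3:**
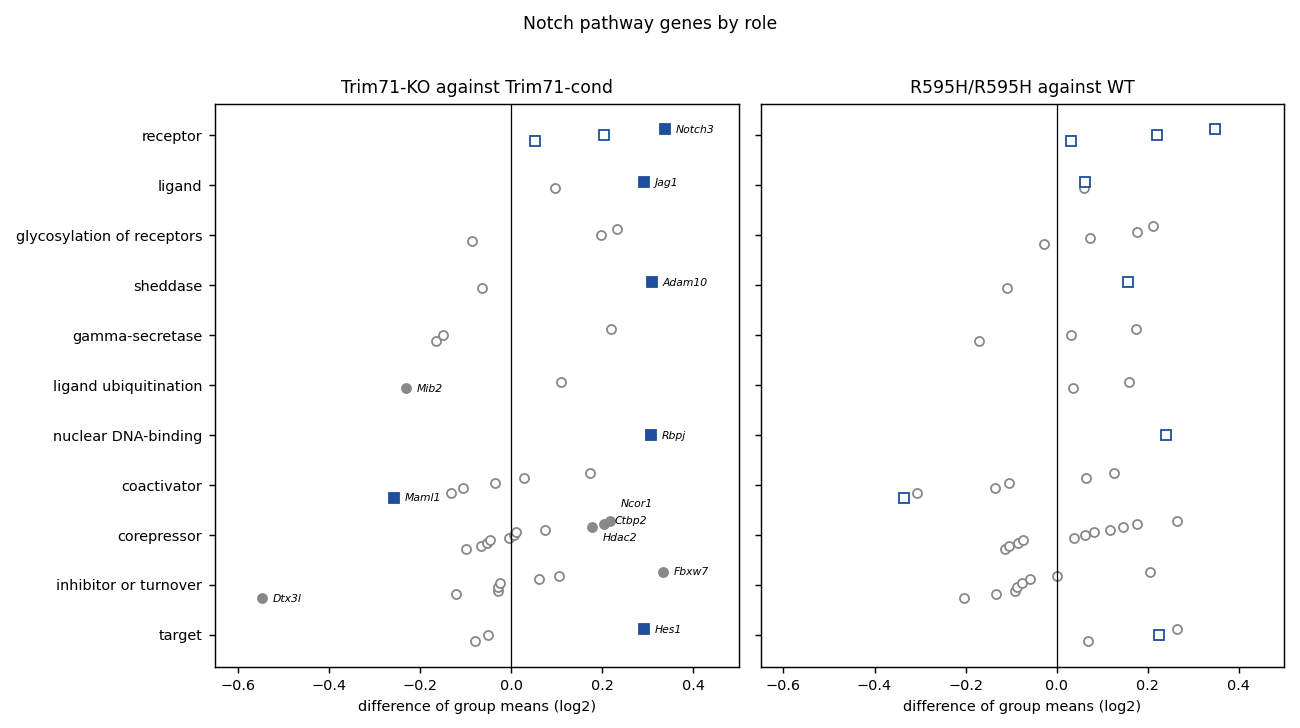
Difference of group means (log2) for the Notch pathway genes above the minimum, by role, in Trim71-KO against Trim71-cond (left) and R595H/R595H against WT (right). Blue squares are the 8 tested genes of the 9-gene set, grey circles the further pathway genes, and filled, named symbols are called at an adjusted p under 0.05. Filled symbols appear on the left only, where 4 further genes lie above 0 and 2 below.

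In the homozygous R595H clones no Notch pathway gene passed the test. By limma 0 of the 8 genes were called, with 4 at an unadjusted p under 0.05. Of all 9587 genes tested 3.42% were called, and 21% had an unadjusted p under 0.05. Of the further genes, 0 of 37 were called, with 7 at an unadjusted p under 0.05. The values leaned upward: 7 of the 8 differences were above 0, with a median of 0.19 against -0.002 over all genes and 0.04 for the further genes. Groups did not overlap for 4 of the 8 genes (Notch1, Notch2 and Rbpj higher, Maml1 lower), and for 29.7% of all genes.

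Notch2 came closest to a call. The WT clones C16, C7 and C5 read 6.36, 6.04 and 6.27, and the R595H/R595H clones C14, C20 and C24 read 6.60, 6.54 and 6.58. The homozygous clones were tightly grouped and all higher. Their mean was 6.57 ± 0.03 (SD, n = 3) against 6.22 ± 0.16 (SD, n = 3), a difference of 0.35 ± 0.09 (SE; adjusted p 0.055). It was 0.31 between the libraries of 20/1, 1 clone each, and 0.33 between those of 5/2. The 20/1 clones C16 and C14 also have libraries of 5/2, so the dates are not independent. The adjusted p was 0.041 when all 12 libraries were fitted with the clone as a random effect and 0.039 when the heterozygous clone C21 was left out of the shared fit.

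Maml1 was lower in the homozygous clones too, at 3.91, 3.65 and 3.98 in C14, C20 and C24 against 4.10, 4.36 and 4.09 in C16, C7 and C5. The groups did not overlap, and the difference was -0.34 ± 0.10 (SE; adjusted p 0.089). Rbpj read 8.92, 8.99 and 8.77 against 8.60, 8.70 and 8.67 in the same clones, a difference of 0.24 ± 0.09 (SE; adjusted p 0.15). Notch1 read 5.77, 5.83 and 5.69 against 5.64, 5.44 and 5.55, with a difference of 0.22 ± 0.10 (SE; adjusted p 0.20). For these 3 genes, too, the clones separated without passing the test. Within the dates 20/1 and 5/2, which share the clones C16 and C14, the differences were -0.28 and -0.31 for Maml1, 0.22 and 0.27 for Rbpj, and 0.16 and 0.21 for Notch1.

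Hes1 varied more between clones of 1 genotype than any other gene of the set. It read 6.02, 6.18 and 5.54 in the WT clones C16, C7 and C5, 6.15, 5.90 and 6.37 in C14, C20 and C24, and 5.76, 5.30 and 5.94 in the heterozygous C15, C21 and C23. The genotypes overlapped. Libraries of the same WT clone C16 from the 2 dates differed by -0.26 (20/1 minus 5/2). The R595H/R595H minus WT difference of 0.22 ± 0.18 (SE) had an adjusted p of 0.49. The remaining differences from WT were 0.16 for Adam10 (adjusted p 0.36), 0.06 for Jag1 (0.79) and 0.03 for Notch3 (0.87). The sign for Notch3 turned under equal library totals and with the Y-linked mean as a covariate.

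Y-linked genes, which vary between clones, were unevenly spread over the genotypes. The mean of 4 Y-linked genes lay between 3.72 and 4.36 in R595H/R595H libraries. Among the WT libraries those of C16 and C7 lay between 3.89 and 4.31, inside that range, and C5 stood apart at 6.00. R595H/+ libraries lay between 4.02 and 5.61. With that mean as a covariate, the Notch2 difference was 0.38 (adjusted p 0.094) and that of Maml1 -0.33 (adjusted p 0.17). The Rbpj difference was then 0.26 (adjusted p 0.22). In the first set of cells that mean also lay apart, at 5.88 to 6.20 in Trim71-cond and 5.65 to 5.80 in Trim71-KO libraries. Its part in the results of that set was not tested.

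Heterozygous R595H/+ clones were set against the same WT clones, so the results of both mutant genotypes are not independent. No gene at all was called by limma in R595H/+ (0% of 9587). Among the 8 genes 1 had an unadjusted p under 0.05, which was Maml1 at -0.25 ± 0.10 (SE; adjusted p 0.62), and among the 37 further genes 4 did, against 7.66% of all genes. Hes1 differed by -0.25 and Adam10 by 0.18, and all 8 adjusted p were 0.62 or more. The dates gave different pictures. They are taken from the library titles, and for the C15 library titled 20/1 the day tag of the labels names another date, so its date is in doubt. At 20/1, where each genotype had 1 clone, all 8 genes were lower in R595H/+ than in WT. At 5/2, 5 were higher and 3 lower. The 2 libraries of C15 themselves differed by -0.35 for Jag1 and -0.24 for Adam10 (the one titled 20/1 minus the other).

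Homozygous against heterozygous clones gave 0 of 8 genes called by limma, with 2 at an unadjusted p under 0.05. Of all genes 0.772% were called and 18.7% had an unadjusted p under 0.05. The 2 genes were Hes1, at 6.14 ± 0.23 in R595H/R595H and 5.67 ± 0.33 in R595H/+ (SD, n = 3 each; difference 0.47, adjusted p 0.18), and Notch2, with a difference of 0.28 (adjusted p 0.14). Of the 37 further genes 0 were called, with 6 at an unadjusted p under 0.05.

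**Figure D4:**
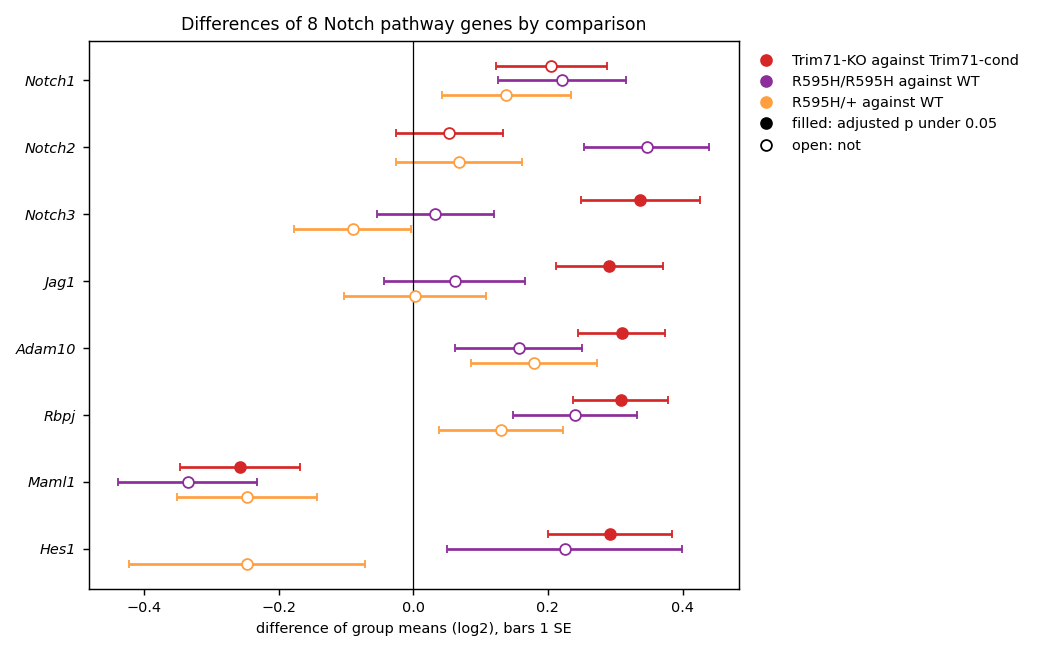
Difference of group means (log2) with 1 SE for the 8 genes above the minimum in 3 comparisons; filled points have an adjusted p under 0.05. Filled points occur only for Trim71-KO against Trim71-cond, Notch2 lies at 0.35 in R595H/R595H against 0.05 in Trim71-KO, and Notch3 at 0.03 against 0.34.

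Whether the deletion and the homozygous change moved a gene by different amounts was tested directly, in one fit of both sets of cells. By limma 0 of the 8 genes were called and 2 had an unadjusted p under 0.05. Of all 9585 genes 1.42% were called and 17.4% had an unadjusted p under 0.05. Those 2 were Notch3, whose deletion effect exceeded the homozygous effect by 0.31 ± 0.13 (SE; adjusted p 0.21), and Notch2, for which it was smaller, at -0.29 ± 0.12 (SE; adjusted p 0.20). For Jag1 the difference of effects was 0.23 ± 0.13 (SE; adjusted p 0.37). For Maml1, which was lower in both, it was 0.08 ± 0.14 (SE; adjusted p 0.81). The cell sets differ in starting cells and handling, which cannot be told apart from genotype here. Of the further genes 0 of 36 were called, with 9 at an unadjusted p under 0.05. Without both 1A libraries 0 of the 8 genes were called, where 2.13% of all genes were.

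Set in order over all 5 groups, the genes followed different orders. Jag1 had the widest range of group means, 0.67, in the order Trim71-KO, Trim71-cond, R595H/R595H, R595H/+ and WT. Both conditional groups lay apart from each other and above all clonal groups, which overlapped. For Notch3 and Adam10 Trim71-KO stood first and clear of the next group, and the rest overlapped their neighbours. R595H/R595H stood first and clear for Notch2. Rbpj was highest in R595H/R595H and lowest in Trim71-cond, and only that last step was clear of overlap. Neighbouring groups overlapped throughout for Notch1, Maml1, Hes1 and Lfng.

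As a description over 17 units (8 conditional libraries and 9 clones, each centred on the mean of its own set), the members that varied most alike were Jag1 and Rbpj (Pearson r 0.78), Rbpj and Adam10 (0.75) and Jag1 and Adam10 (0.73). Notch1 and Maml1 varied in opposite directions (r -0.72). These units share genotype groups, scaling and, for conditional libraries, codes. Hes1 tracked Rbpj little, at 0.07. Over all genes of the table above the minimum, Notch3 was most like Sdc4 (0.90), which encodes a syndecan of the cell surface, then Pcyox1l (0.88) and Ephx1 (0.87). Notch1 was most like Micall1 (0.88), Plec (0.87) and Pdia5 (0.87), and Hes1 most like Lrrc34 (0.90), Akap7 (0.90) and Sh3bp4 (0.88).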

How the data were processed

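Bulk RNA of 20 mouse embryonic stem cell libraries was measured. The labels' protocols name TRIZOL extraction, the TruSeq RNA kit v2, which does not mark strand, and a paired-end run. CASAVA 1.8, STAR and DESeq2 appear in the submitters' processing notes. Build, annotation, counting and transformation were not given in the sources used. The authors deposited one score per gene and library, read here as a log2 value of the regularized kind (base inferred, -0.65 to 18.0, 1.58% below 0). Such values draw low genes toward their mean, and whether that shrank a fold here was not measured. The plan had assumed values on a linear scale, so limma was run on the deposited log2 scores as they stood.

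The 9 genes, the pathway list and the marker lists were chosen with earlier results of these data known. Named are the 9 genes, Trim71, each further pathway gene called in a comparison, and for Notch1, Notch3 and Hes1 the 3 genes of highest Pearson r. Other genes are given for their role and were chosen after their values were seen. limma 3.58.1 in R 4.3.3 (lmFit, eBayes with trend and robust) was fitted to all genes whose mean log2 value reached 3.32, and p was adjusted by Benjamini-Hochberg over all of them. The fits held 8 conditional libraries, 9 clone values, or all 17 units. The fits were tested on simulated data. Summed marker levels are log2 of sums of back-transformed values, and positions come from GENCODE vM21 on GRCm38. The day tag of the labels equals the number in the code, so 3A and 3B share a day tag. Pairing within a code thus rests on the day tag for 1A and 2B, and also on the letter of the code for 3A and 3B. Deviations from the group means of same-code libraries correlated across genes at -0.89, -0.09, -0.12 and 0.13. Alternatives were other minimums, scalings and variance models, blocks for code or day, other treatments of clone libraries, a Y-linked covariate, and each library or clone left out.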

Additional observations from a re-analysis of the deposited data

Results flagged for a closer look

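In the Trim71-cond library 2B the level of Mib2 was 6.72, far from the other 3 libraries of that group for its spread, with a gap of 0.853 of the group's range, above the critical value of Dixon's test for 4 samples. It was 1 of 32 groups tested, and chance flags about 1 in 20.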

How the results depend on the processing

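Scaling, filter, variance model, pairing and clone handling were each varied. In Trim71-KO against Trim71-cond, Notch3, Rbpj and Adam10 kept their call in all 16 alternatives and Jag1 in 15, the exception being both 1A libraries left out. Fbxw7 and Ncor1 kept theirs in all 16, and Dtx3l kept its call in all 15 alternatives in which it was tested. The replicate block called 1392 genes against 1783 and 5 of the 8 genes against 6. Beside Maml1, Mib2 and Ctbp2 it changed no call among the 8 genes, Trim71 and the further genes called in the main fit. For the markers, calls under the alternatives were not computed. Over the alternatives the adjusted p ran from 0.0074 to 0.046 for Notch3, 0.0091 to 0.084 for Jag1, 0.0022 to 0.038 for Rbpj, 0.0013 to 0.016 for Adam10, 0.010 to 0.12 for Hes1, 0.030 to 0.38 for Maml1, 0.036 to 0.17 for Mib2, 0.016 to 0.063 for Ctbp2 and 0.021 to 0.14 for Hdac2. With the label's day as a block the Hdac2 call was lost (adjusted p 0.058). Further genes called there numbered 3 to 6 as each library was left out, 3 without Trim71-cond 2B or Trim71-KO 2B, where all genes called also fell, to 1291 and 1295. Leaving out both 1A libraries gave 1496 genes, and 204 for the difference of effects.

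Counts in the clones were less stable. R595H/R595H against WT called 328 genes (210 higher, 118 lower), but 177 at a minimum of 50, 157 at equal library totals (72 higher, 85 lower), 191 with 5/2 libraries only, 134 with the Y-linked covariate, and 67 (without C14) to 541 (without the heterozygous C21) with a clone left out. Of the 8 genes 1 was called, and 2 of the further genes, with 12 libraries and the clone as a random effect, which called 462 genes (4.82%); with a clone left out both counts ran from 0 to 1. For Notch2 the adjusted p ran from 0.039 to 0.21. R595H/R595H against R595H/+ called 74 (55 higher, 19 lower), but 116 with no minimum, 37 at a minimum of 50, 19 at equal totals (11 higher, 8 lower), 213 with 12 libraries (1 of the further genes), 1 with only the groups compared, 3 with the covariate, and 7 to 80 with a clone left out. The difference of effects called 136 (70 higher, 66 lower), but 102 at equal totals (70 higher, 32 lower), 83 with 5/2 libraries only, and 40 (without WT C7) to 141 with a unit left out.

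Signs turned only for differences that no alternative called. Notch3 in R595H/R595H against WT was -0.0028 at equal totals, -0.0069 with the covariate and -0.0017 to 0.070 with a clone left out; Jag1 there ran from -0.00062 to 0.11. Jag1 in R595H/R595H against R595H/+ was -0.0071 with 5/2 libraries only and -0.030 to 0.17 with a clone left out, Maml1 -0.15 to 0.0084 and Adam10 -0.078 to 0.073. In R595H/+ against WT, Jag1 was -0.0034 after quantile normalization, -0.013 with 12 libraries and -0.11 to 0.091 with a clone left out, and Notch2 ran from -0.023 to 0.13. For the difference of effects, Notch1 was 0.026 at equal totals and -0.077 to 0.036 with a unit left out, Maml1 -0.018 to 0.14, Hes1 -0.066 to 0.25, and Rbpj was -0.0081 without both 1A libraries. The cause of these changes was not tested. Groups of 3 or 4 and an unknown depth limit what could be detected.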
